A study of Bos taurus with 21 samples.

Results

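The muscle acetylcholine receptor and the proteins that gather it under the nerve were followed through foetal life by 13 array probes of 7 genes, *CHRNA1*, *CHRNB1*, *CHRND*, *CHRNE*, *CHRNG*, *MUSK* and *RAPSN*. They are all the non-control probes whose transcript belongs to one of these genes in the cattle annotation, out of 43653 probes on the array and 12538 genes that could be named. *MUSK* had 3 probes, *CHRNA1*, *CHRND*, *CHRNE* and *CHRNG* had 2 each, and *CHRNB1* and *RAPSN* had 1.

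Total RNA came from muscle of 21 untreated foetuses, 10 of the breed Blonde Aquitaine (BA) and 11 Charolais (CH), each hybridized on its own single-colour array. The BA foetuses numbered 3, 2, 3 and 2 at 110, 180, 210 and 260 days post conception (dpc), and the CH foetuses 2, 3, 3 and 3. In each breed they descended from 2 sires, and they were 3 males and 7 females in BA and 5 males and 6 females in CH. Sex was not balanced over stages and breeds. All BA foetuses at 180 and 260 dpc and all CH foetuses at 110 dpc were female. Males were 2 of the 3 BA foetuses at 110 dpc and 2 of the 3 CH foetuses at 260 dpc. The sample labels name *Longissimus thoracis* as the muscle where the methods of the study name *m. Semitendinosus*, and the BA foetuses had not been genotyped for the myostatin mutation common in their breed.

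The nicotinic receptor of muscle is a pentamer that opens when the motor nerve releases acetylcholine. Foetal receptors combine alpha, beta and delta subunits with a gamma subunit, encoded by *CHRNG*. In adult muscle an epsilon subunit, encoded by *CHRNE*, takes the place of gamma, which shortens channel opening and raises conductance. MuSK is the receptor tyrosine kinase through which the nerve-derived signal agrin organizes the junction, and rapsyn, the product of *RAPSN*, anchors and clusters the receptors.

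All signals are in log2 units after each array was set to a common 75th percentile, with 0 near the middle of all probes and a difference of 1 is a doubling. Probes bind with unequal strength, so a level can be followed between arrays but not compared between probes, and for each gene the probe with the highest mean is called its main probe. Differences were tested with limma over all 21 arrays, and the threshold was an adjusted p of 0.05 (Benjamini-Hochberg, over all probes). On a single array 29017 to 34501 probes were well above background, and 10 of the 13 probes of the 7 genes were so on every array. The numbers of 2 or 3 arrays per group limit the precision. As a label of tissue, muscle held against its fibre markers, which do not decide which of the named muscles was sampled. All 10 muscle fibre markers were well above background on every array, and their mean level rose from a range of 8.18 to 8.59 at 110 dpc to 10.31 to 10.46 at 260 dpc. In RNA from whole muscle, fewer cells of a kind and less RNA per cell cannot be told apart.

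The gamma and epsilon subunits moved in opposite directions in both breeds. *CHRNG* fell 6.81-fold and *CHRNE* rose 7.84-fold between 110 and 260 dpc on their main probes. *CHRNG* passed in each of the 3 intervals, whereas the main probe of *CHRNE* passed only from 180 dpc on.

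*CHRNG* by its main probe (A_73_119910) had log2 signals of 8.86, 9.39 and 8.92 in the BA foetuses at 110 dpc, 7.69 and 8.54 at 180 dpc, 7.31, 7.36 and 6.87 at 210 dpc, and 6.01 and 5.99 at 260 dpc. In CH the signals were 8.51 and 8.67 at 110 dpc, 7.42, 7.37 and 7.91 at 180 dpc, 6.58, 6.96 and 6.92 at 210 dpc, and 6.75, 5.75 and 5.81 at 260 dpc. Within BA no stage overlapped another. Within CH, replicate 1 at 260 dpc lay inside the range of 210 dpc and apart from its 2 group mates. Neighbouring stages taken over both breeds overlapped at both ends of the series, by the BA foetus with 8.54 at 180 dpc and by the CH foetus with 6.75 at 260 dpc. The change from 110 to 260 dpc, as the mean of both breeds, was -2.77 (SE 0.22, limma adjusted p = 4.69e-08). BA fell by 3.05 (SE 0.31, limma adjusted p = 1.84e-06), and CH fell by 2.48 with the same SE (limma adjusted p = 1.35e-05). The second probe (A_73_P095246) fell by 2.67 (limma adjusted p = 8.2e-08) and followed the main probe with a Pearson r of 0.997 over the 21 arrays. The main probe reached 69989 intensity units at its brightest. No spot was marked as saturated, and the second probe, at about the same slope, reached 34993.

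The fall of *CHRNG* was spread over the whole period, in intervals of unequal length of which the middle interval was the shortest. It was -0.98 from 110 to 180 dpc (SE 0.22, limma adjusted p = 0.00659), -0.84 from 180 to 210 dpc (SE 0.21, limma adjusted p = 0.0344) and -0.95 from 210 to 260 dpc (SE 0.21, limma adjusted p = 0.00308). The 6 slides did not hold every stage, and only 1 slide held arrays of both 110 and 260 dpc. On it the *CHRNG* difference was -3.10. On each of the 6 slides the signal was lower at the latest stage than at the earliest, with differences from -3.10 to -0.55. The call of the middle interval was the least secure. With slide as a block it was -0.89 (limma adjusted p = 0.219), and it was lost without any 1 of 7 arrays, replicate 2 of BA at 180 dpc (-0.63), replicates 1 and 3 of BA at 210 dpc, of CH at 180 dpc and of CH at 210 dpc, with a highest limma adjusted p of 0.195.

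*CHRNE* by its main probe (A_73_107231) had signals of 0.93, 0.12 and 0.66 in BA at 110 dpc, 1.04 and 0.33 at 180 dpc, 1.87, 1.53 and 1.62 at 210 dpc, and 3.79 and 3.23 at 260 dpc. In CH they were 0.89 and 0.52, then 0.57, 1.28 and 1.06, then 2.70, 1.88 and 2.27, and finally 3.78, 3.53 and 3.82. The ranges of 110 and 180 dpc overlapped in both breeds. Every array at 210 dpc lay above every array at 180 dpc, and every array at 260 dpc above every array at 210 dpc. From 110 to 260 dpc the change was 2.97 (SE 0.21, limma adjusted p = 1.82e-08), and the breeds each passed, BA by 2.94 (SE 0.30, limma adjusted p = 2.29e-06) and CH by 3.00 (limma adjusted p = 1.75e-06).

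The interval values of *CHRNE* grew with age. The intervals differ in length, the earliest being the longest and the middle interval the shortest, so these values are not rates. The main probe gave 0.18 from 110 to 180 dpc (SE 0.21, limma adjusted p = 0.663), 1.15 from 180 to 210 dpc (SE 0.20, limma adjusted p = 0.00537) and 1.63 from 210 to 260 dpc (SE 0.20, limma adjusted p = 3.48e-05). The second and dimmer probe (A_73_P041101) changed by 3.67 over the period (limma adjusted p = 2.74e-09), and it also passed in the earliest interval, at 0.80 (SE 0.22, limma adjusted p = 0.0261). That early call rests on a probe near background. It was not well above background on 1 of 3 BA arrays and 1 of 2 CH arrays at 110 dpc, and with normexp background correction the value was 0.30 (limma adjusted p = 0.104). It was also lost without replicate 1 of CH at 110 dpc (0.70, limma adjusted p = 0.119), replicate 1 of BA at 180 dpc or replicate 2 or 3 of CH at 180 dpc. On the slide that held both end stages the main probe differed by 2.59. It was higher at the latest than at the earliest stage on all 6 slides, by as little as 0.04 on a slide with 110 and 180 dpc only. With slide as a block the interval from 180 to 210 dpc was 0.84 (limma adjusted p = 0.196).

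Taken on each array, the epsilon signal minus the gamma signal describes the exchange without any scaling between arrays. On the main probes this difference ran from -9.26 to -7.62 at 110 dpc, -8.21 to -6.10 at 180 dpc, -5.83 to -3.88 at 210 dpc and -2.97 to -1.99 at 260 dpc. The 110 and 180 dpc arrays overlapped. The arrays of 210 dpc were separate from those before and after. The difference itself says nothing of how much of each subunit was present, since the probes differ, but its change between stages can be read. It grew by 5.99 in BA and 5.49 in CH, or 63.5-fold and 44.9-fold. The second probes of both genes gave 6.37 and 6.32, but the epsilon probe among them was near background at 110 dpc, and its own change of 3.67 was 2.06 with normexp, so no fold is given for them. These values are a description without a test.

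**Figure D1:**
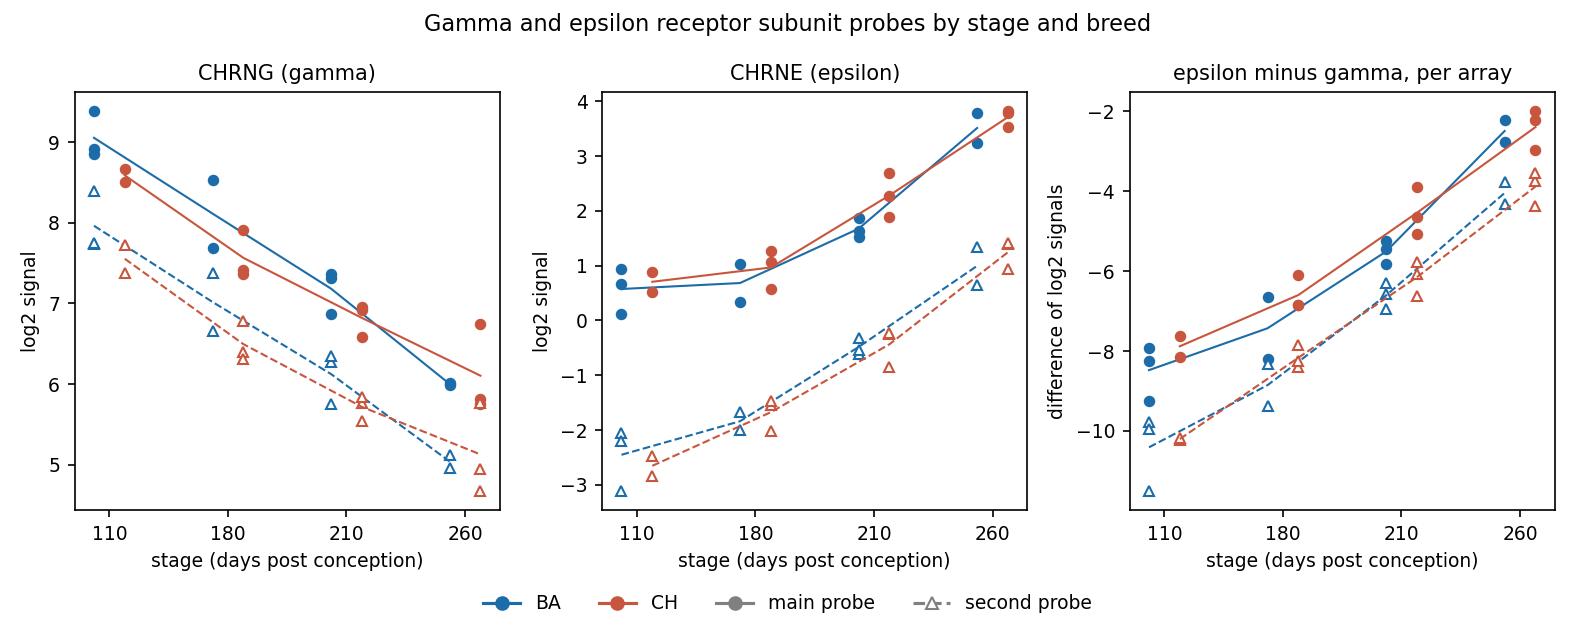
Log2 signal of the *CHRNG* and *CHRNE* probes (left and middle) and their difference on each array (right) against stage in days post conception, drawn at equal spacing. Each point is 1 foetus, lines join the breed means, filled circles are the main probes and open triangles the second probes. *CHRNG* falls at every step, *CHRNE* is flat to 180 dpc on its main probe and then rises, and the 5 arrays at 260 dpc, between -2.97 and -1.99 on the main probes, lie above all others in the right panel.

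The 3 subunits shared by foetal and adult receptors moved far less than gamma or epsilon. *CHRNB1*, the beta subunit, passed in no comparison. *CHRNA1*, the alpha subunit that carries the main acetylcholine binding surface, passed on single probes only. *CHRND*, the delta subunit, passed upward in the earliest interval and downward in the latest, on both of its probes.

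*CHRND* by its main probe (A_73_118648) had signals in BA of 5.99, 6.46 and 6.59 at 110 dpc, 6.58 and 6.97 at 180 dpc, 7.14, 7.15 and 6.59 at 210 dpc, and 6.18 and 6.30 at 260 dpc. In CH the signals were 6.06 and 5.94, then 7.13, 6.71 and 6.49, then 6.36, 6.61 and 6.53, then 6.39, 6.24 and 5.88. No array of 180 dpc overlapped those of 260 dpc, while those of 110 and 260 dpc overlapped. The signal rose by 0.60 from 110 to 180 dpc (SE 0.17, limma adjusted p = 0.0249), differed by -0.05 from 180 to 210 dpc (limma adjusted p = 0.946) and fell by 0.53 from 210 to 260 dpc (SE 0.16, limma adjusted p = 0.0233). The second probe (A_73_P256016) gave 0.66, 0.11 and -0.51 in the same intervals, the outer ones passing in limma with adjusted p = 0.0133 and 0.0238. From 110 to 260 dpc the main probe differed by 0.03 (SE 0.17, limma adjusted p = 0.905). With median scaling the late fall was -0.43 (limma adjusted p = 0.0637), and with the authors' unscaled value table the early rise was 0.62 (limma adjusted p = 0.127). Single arrays also decided these calls on the main probe. The early rise was lost in 5 of 21 leave-outs (replicate 1 of BA and both replicates of CH at 110 dpc, replicate 2 of BA and replicate 1 of CH at 180 dpc), with values from 0.50 upward and a highest adjusted p of 0.113, and the late fall in 6 (replicates 1 and 2 of BA and 2 of CH at 210 dpc, both of BA and replicate 3 of CH at 260 dpc), with values up to -0.45 and a highest limma adjusted p of 0.078. On the second probe the early rise was lost without replicate 2 of BA at 180 dpc or of CH at 110 dpc, and the late fall without 5 of those 6, all but replicate 2 of BA at 260 dpc.

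The 2 *CHRNA1* probes did not follow each other, with a Pearson r of 0.226 over the 21 arrays. The main probe (A_73_P192282) stayed between 7.36 and 8.12 on all arrays. In CH it was at 7.36 and 7.60 at 110 dpc and at 8.05, 7.93 and 7.80 at 260 dpc, which did not overlap (change 0.45, SE 0.14, limma adjusted p = 0.0208). In BA it was at 7.76, 8.04 and 8.12 at 110 dpc and at 8.0 and 8.07 at 260 dpc, which did. Its mean change of 0.26 (SE 0.10, limma adjusted p = 0.0468) turned to -0.28 with quantile normalization and to -0.13 with the authors' value table, and it missed the threshold without any 1 of 15 arrays, so no direction is given for it. The other probe (A_73_105112) passed only from 210 to 260 dpc, at 0.55 (SE 0.14, limma adjusted p = 0.0113), and that value was 0.14 (limma adjusted p = 0.648) with the authors' value table and 0.45 (limma adjusted p = 0.0808) without replicate 2 of BA at 260 dpc. *CHRNB1* (A_73_101502) lay between 4.07 and 4.80 on all 21 arrays, and its change from 110 to 260 dpc was 0.14 (SE 0.12, limma adjusted p = 0.389), or -0.25 with the authors' value table. The signals of every stage overlapped for it.

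*MUSK* fell early and *RAPSN* fell less and more slowly. The main probe of *MUSK* was 6.15-fold lower at 260 than at 110 dpc, with most of the difference before 180 dpc. *RAPSN* was 1.79-fold lower.

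*MUSK* (A_73_100908) had signals in BA of 2.37, 2.94 and 1.85 at 110 dpc, 0.52 and 0.83 at 180 dpc, -0.18, 0.19 and -0.53 at 210 dpc, and -0.26 and 0.33 at 260 dpc. The CH signals were 2.30 and 2.01, then 0.01, 0.56 and 0.16, then -0.12, 0.07 and -0.27, then -0.68, -0.55 and -0.99. All 5 arrays at 110 dpc stood above every later array, and the later stages overlapped. The change was -2.62 over the period (SE 0.21, limma adjusted p = 5.58e-08), -2.35 among BA foetuses (limma adjusted p = 1.66e-05) and -2.89 among CH foetuses (limma adjusted p = 2.02e-06). By interval it was -1.81 (SE 0.21, limma adjusted p = 3.48e-05), -0.60 (limma adjusted p = 0.124) and -0.21 (limma adjusted p = 0.499). The size of the change over the period depended on the processing. Leave-outs apart, it ran from -3.01 to -1.90 under the 9 other settings that tested this probe, and passed in each.

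The other *MUSK* probes fell too. A_73_P286891 changed by -2.17 (SE 0.31, limma adjusted p = 3.45e-05), of which -1.83 was in the earliest interval, and by -0.89 over the period with normexp. A_73_P087001 changed by -3.14 (SE 0.32, limma adjusted p = 7.5e-07), but no array at 260 dpc had it well above background, so only a bound can be given there, and with normexp its change was -0.73. In BA it was at least 3.99-fold lower at 260 than at 110 dpc. In CH it was at least 4.53-fold lower. The bound sets the 110 dpc mean against the dimmest signal well above background on each 260 dpc array. This dim probe passed again from 210 to 260 dpc, whereas the main probe did not.

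*RAPSN* (A_73_109158) had signals in BA of 3.83, 4.57 and 4.16 at 110 dpc, 4.05 and 4.11 at 180 dpc, 3.64, 3.74 and 3.65 at 210 dpc, and 3.34 and 3.51 at 260 dpc. In CH it was at 4.52 and 4.33, then 3.72, 3.87 and 3.51, then 3.31, 3.79 and 3.22, then 3.47, 3.39 and 3.65. The end stages did not overlap, and each stage overlapped the next. The change was -0.84 (SE 0.14, limma adjusted p = 0.000144), with -0.76 for BA (limma adjusted p = 0.00808) and -0.93 for CH (limma adjusted p = 0.002). The interval values were -0.41 (limma adjusted p = 0.0699), -0.34 (limma adjusted p = 0.216) and -0.09 (limma adjusted p = 0.681), so no single interval passed. The slide that held both end stages gave -0.44. With slide as a block the change in CH was -0.69 and did not pass (limma adjusted p = 0.0861), and without replicate 1 of BA at 260 dpc the change in BA was -0.67 (limma adjusted p = 0.0725).

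**Figure D2:**
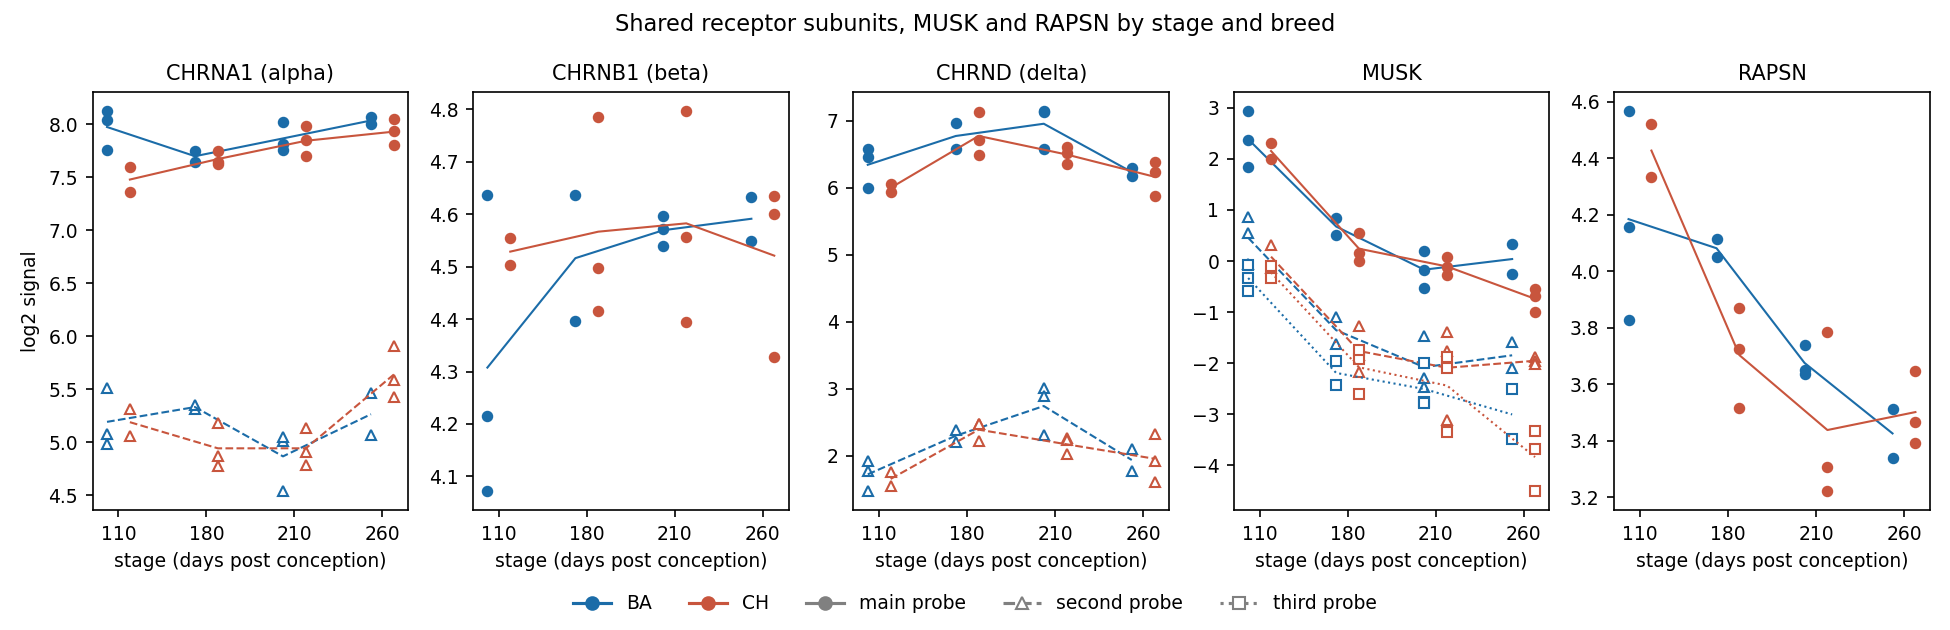
Log2 signal of the *CHRNA1*, *CHRNB1*, *CHRND*, *MUSK* and *RAPSN* probes against stage in days post conception, each panel with its own vertical scale. Points are single foetuses and lines join the breed means. The delta subunit is highest at 180 and 210 dpc, *MUSK* drops between 110 and 180 dpc on all 3 probes, and *CHRNB1* stays within 4.07 to 4.80.

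Counted over the probes, 9 of 13 passed between 110 and 260 dpc in the mean of both breeds, against 43.9% of all 43651 probes that could be tested. The 9 were 6 lower probes, of *CHRNG*, *MUSK* and *RAPSN*, and 3 higher ones, of *CHRNE* and, with the direction open to scaling, *CHRNA1*, while 22.7% of all probes were lower and 21.2% higher. In BA 8 passed (33.3% of all probes) and in CH 9 (32.7%). By interval 8 of 13 passed from 110 to 180 dpc (13.2% of all probes), 4 from 180 to 210 dpc (3.62%), all of them *CHRNG* or *CHRNE* probes, and 8 from 210 to 260 dpc (24%). The 4 of the middle interval became 0 with slide as a block and 1 with the authors' value table. Probes of a gene are not independent, and by main probes the genes that passed were 5 of 7 over the whole period and 3, 2 and 3 by interval.

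**Figure D3:**
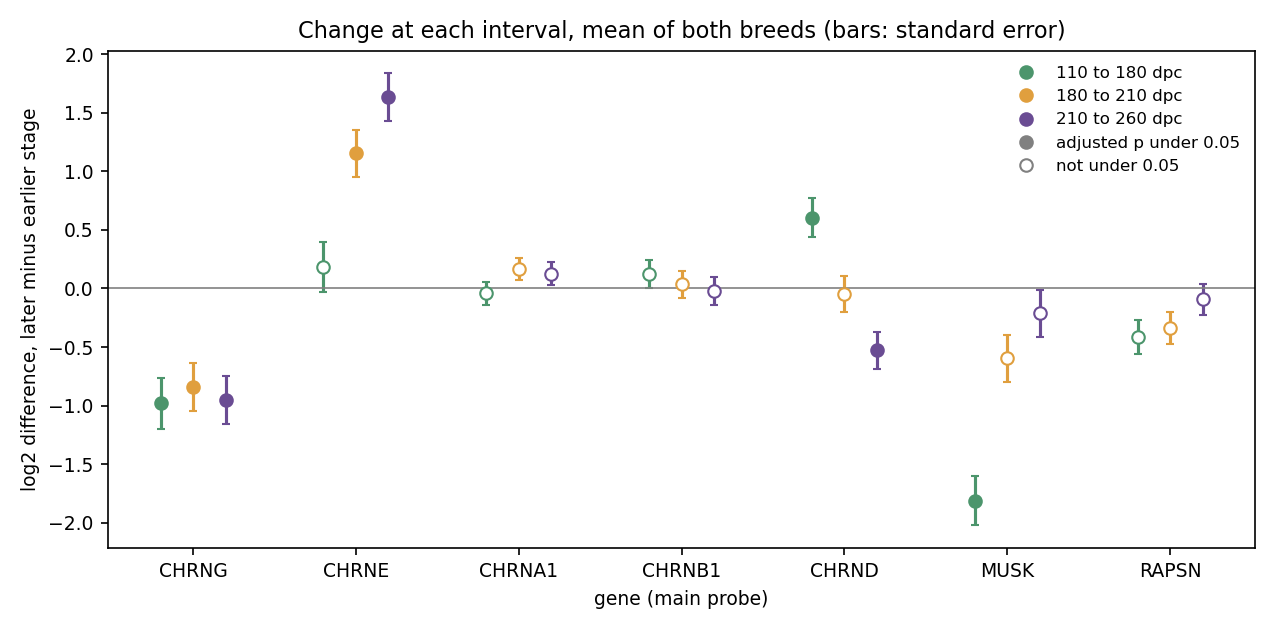
Log2 change of the main probe of each gene over the intervals 110 to 180, 180 to 210 and 210 to 260 dpc, as the mean of both breeds with its standard error. The intervals differ in length, so the values are not rates. Filled points have a limma adjusted p under 0.05. *CHRNG* is near -0.9 in all 3 intervals, from -0.98 to -0.84, *CHRNE* climbs from 0.18 to 1.63, *MUSK* has its change of -1.81 in the earliest interval, and *CHRND* turns from 0.60 to -0.53.

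The breeds were then compared at each stage and in their course. No probe of the 7 genes passed between BA and CH in limma. The averaged comparison gave 0 of 13 (0.0733% of all probes, 3 of the 13 at an unadjusted p under 0.05), with differences from -0.31 to 0.35 and a lowest adjusted p of 0.482. At 110 dpc the count was 0 (0.0206% of all probes, 1 at an unadjusted p under 0.05), at 180 dpc 0 (0.0275%, 0 unadjusted), at 210 dpc 0 (0.00229%, 3 unadjusted) and at 260 dpc 0 (0.0137%, 1 unadjusted). The change from 110 to 260 dpc did not differ between breeds at the threshold either, with 0 of 13 (0.00687% of all probes, 0 unadjusted) and a lowest limma adjusted p of 0.944. The counts of probes that passed were also 0 with each of the 31 other settings tried. Over all probes, 3894 of 43651 had an unadjusted limma p under 0.05 in the averaged comparison. At 110, 180, 210 and 260 dpc 4269 of 43651, 2556 of 43653, 1927 of 43653 and 2006 of 43652 did. For the difference between breeds in the change from 110 to 260 dpc 2312 of 43651 did. With 2 or 3 arrays to a breed and stage, differences of the size seen here, up to 0.78 on main probes at 260 dpc, did not pass.

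Among main probes the largest averaged differences were those of *MUSK*, *CHRNG* and *CHRNE*. *CHRNG* was 0.32 higher in BA (SE 0.15, limma adjusted p = 0.56) and the main probe of *CHRNE* 0.31 lower (SE 0.15, limma adjusted p = 0.575), although the second *CHRNE* probe gave -0.07. *MUSK* was 0.35 higher in BA (SE 0.14, limma adjusted p = 0.482) and *CHRNA1* 0.16 higher (SE 0.07, limma adjusted p = 0.486), although the other *CHRNA1* probe gave -0.015. There were 6 cases in which a slide held both breeds at the same stage. Within them, on main probes, the BA foetus had the lower *CHRNE* signal in all 6 (-1.17 to -0.016) and the higher *CHRNA1* signal in all 6 (0.0063 to 0.68). It had the higher *CHRNG* (-0.76 to 1.17), *CHRND* (-0.091 to 0.79) and *MUSK* (-0.25 to 1.01) signal in 5 each, the higher *RAPSN* signal in 4 and the higher *CHRNB1* signal in 3. The other probes of *CHRNE* and *CHRNA1* went the way of their main probes in most of these cases, but not in all. On the second *CHRNE* probe the exception was replicate 1 of BA at 210 dpc (-0.31), above replicate 2 of CH on its slide (-0.84). On the other *CHRNA1* probe replicate 1 of BA at 260 dpc (5.06) lay below replicate 3 of CH on its slide (5.91). There replicate 2 of BA at 210 dpc (5.05) also lay below replicate 1 of CH on its slide (5.14). In the interaction the *CHRNG* fall differed by -0.57 between breeds (SE 0.43, limma adjusted p = 0.972) and the *CHRNE* rise by -0.07 (SE 0.43, limma adjusted p = 0.999).

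At single stages the breeds lay apart on some probes. At 260 dpc the main *MUSK* probe was at -0.26 and 0.33 in BA and between -0.99 and -0.55 in CH, a difference of 0.78 (SE 0.29, limma adjusted p = 0.93), while A_73_P286891 gave 0.11 there and A_73_P087001 was not measured above background in either breed. At 110 dpc the main *CHRNA1* probe was at 7.76 to 8.12 in BA and at 7.36 and 7.60 in CH, a difference of 0.50 (SE 0.14, limma adjusted p = 0.268), while the other *CHRNA1* probe gave 0.003. At 210 dpc the delta subunit was higher in BA by 0.46 (SE 0.21, limma adjusted p = 1) on the main probe, where replicate 3 of BA lay among the CH arrays, and 0.57 (SE 0.20, limma adjusted p = 0.976) on the second, where the breeds did not overlap.

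**Figure D4:**
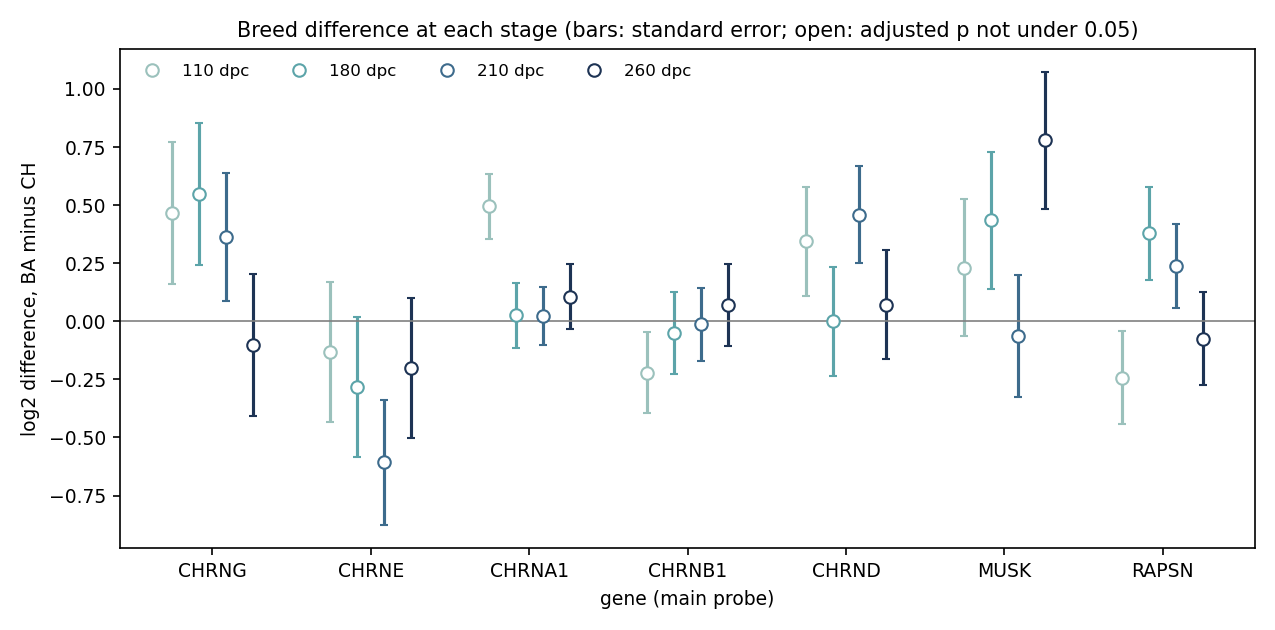
Log2 difference between BA and CH at each stage for the main probe of each gene, with standard errors. Open points have a limma adjusted p not under 0.05, and all points are open. The main *MUSK* probe at 260 dpc has the highest value, 0.78, and *CHRNE* at 210 dpc the lowest, -0.61.

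Around these genes, 4 lists of other junction genes were read by the main probe of each gene. Of the genes with a probe, 4 of 5 in neuregulin signalling fell and 4 of 6 in the postsynaptic scaffold rose, while the agrin pathway and the regulators of receptor transcription were mixed. Over all probes the median change from 110 to 260 dpc was 0.09, and 21.2% of them passed as higher and 22.7% as lower at 260 dpc. The choice of these lists was made with earlier results of the same arrays known, so their counts are descriptions.

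Of 11 genes of agrin signalling and the synaptic basal lamina, 7 had a probe, of which 2 rose and 3 fell from 110 to 260 dpc, with a median of -0.12. *COLQ*, the collagen tail that tethers acetylcholinesterase in the cleft, fell by 3.48 (limma adjusted p = 1.15e-07). It was well above background on 11 arrays and on none at 260 dpc, so that its fall has only a bound, at least 5.50-fold for BA and for CH at least 4.40-fold. *ACHE*, the esterase itself, was at group means of 1.55, 2.49, 2.78 and 2.14 in BA and 1.67, 2.48, 2.62 and 2.16 in CH at the successive stages. It rose by 0.87 to 180 dpc (limma adjusted p = 0.00182) and fell by 0.55 after 210 dpc (limma adjusted p = 0.0156). Over the whole period *ACHE* gained 0.54 (limma adjusted p = 0.0123), which fell short of the threshold with slide as a block and with the authors' value table. The laminin chains diverged, with *LAMB2*, the beta chain concentrated at synapses, up by 0.89 (limma adjusted p = 4.71e-06) and *LAMA4* down by 1.06 (limma adjusted p = 5.77e-06). The *LAMB2* call was lost with the authors' value table (0.50, limma adjusted p = 0.0794). *LRP4*, the receptor that binds agrin, differed by 0.61 (limma adjusted p = 0.106).

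Of 7 genes of neuregulin signalling and subsynaptic transcription, 5 had a probe, and 4 of them fell, with a median of -1.40. *NRG1*, which encodes neuregulin, was well above background on all 5 arrays at 110 dpc and on no later array. Its group means were -0.58 in BA and -0.71 in CH at 110 dpc, and by 260 dpc the signal was at least 3.36-fold lower for BA and for CH at least 3.24-fold lower. A second *NRG1* probe lay near background throughout, well above it on 0 arrays. *ERBB3*, a neuregulin receptor, went from group means of 6.41 to 2.78 in BA and from 6.79 to 2.85 in CH, a change of -3.78 (SE 0.17, limma adjusted p = 1.21e-10), and it passed in each interval. *ETV5*, an ETS factor of synaptic nuclei, fell by 1.40 (limma adjusted p = 2.18e-07), with -1.25 of that before 180 dpc, the interval in which *MUSK* fell. *GABPB1* fell by 0.28 (limma adjusted p = 0.0282), a call lost with median scaling and with slide as a block, and *GABPA* differed by 0.17 (limma adjusted p = 0.126).

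Of 11 scaffold and sodium channel genes, 6 had a probe, of which 4 rose and 0 fell, with a median of 1.16. *CAV3*, the muscle caveolin, rose by 1.96 (limma adjusted p = 4.1e-09), *DTNA*, a dystrobrevin that stabilizes receptors, by 1.45 (limma adjusted p = 1.97e-06) and *DAG1*, dystroglycan, by 0.86 (limma adjusted p = 4.43e-05), the last call being lost with the authors' value table (0.47, limma adjusted p = 0.117). *SNTB2*, a syntrophin, differed by 0.10 (limma adjusted p = 0.365).

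Of 10 regulators that respond to muscle activity or act on receptor promoters, 6 had a probe, of which 2 rose and 3 fell. *HDAC5*, a histone deacetylase, rose by 2.04 (limma adjusted p = 6.9e-10) and *MYF6* by 1.28 (limma adjusted p = 1.78e-05). *MYF5* fell by 2.17 (limma adjusted p = 3.9e-09), *NCAM1*, the adhesion molecule that covers young fibres and later withdraws to the junction, by 1.87 (limma adjusted p = 6.39e-09), and *MYOG*, which activates receptor subunit genes, by 0.78 (limma adjusted p = 0.00949). The *MYOG* change was -0.58 with slide as a block and did not pass (limma adjusted p = 0.0741). *MYOD1* differed by -0.05 (SE 0.69) in the mean of both breeds, made up of 1.58 for BA (SE 0.98, limma adjusted p = 0.254) and -1.68 for CH (limma adjusted p = 0.219), and the breeds' difference did not pass (3.26, SE 1.39, limma adjusted p = 0.94). None of the 24 genes of these lists that had a probe passed between breeds in limma, with a lowest adjusted p of 0.394 in the averaged comparison. There 6 of the 24 had an unadjusted limma p under 0.05, against 3894 of 43651 over all probes.

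**Figure D5:**
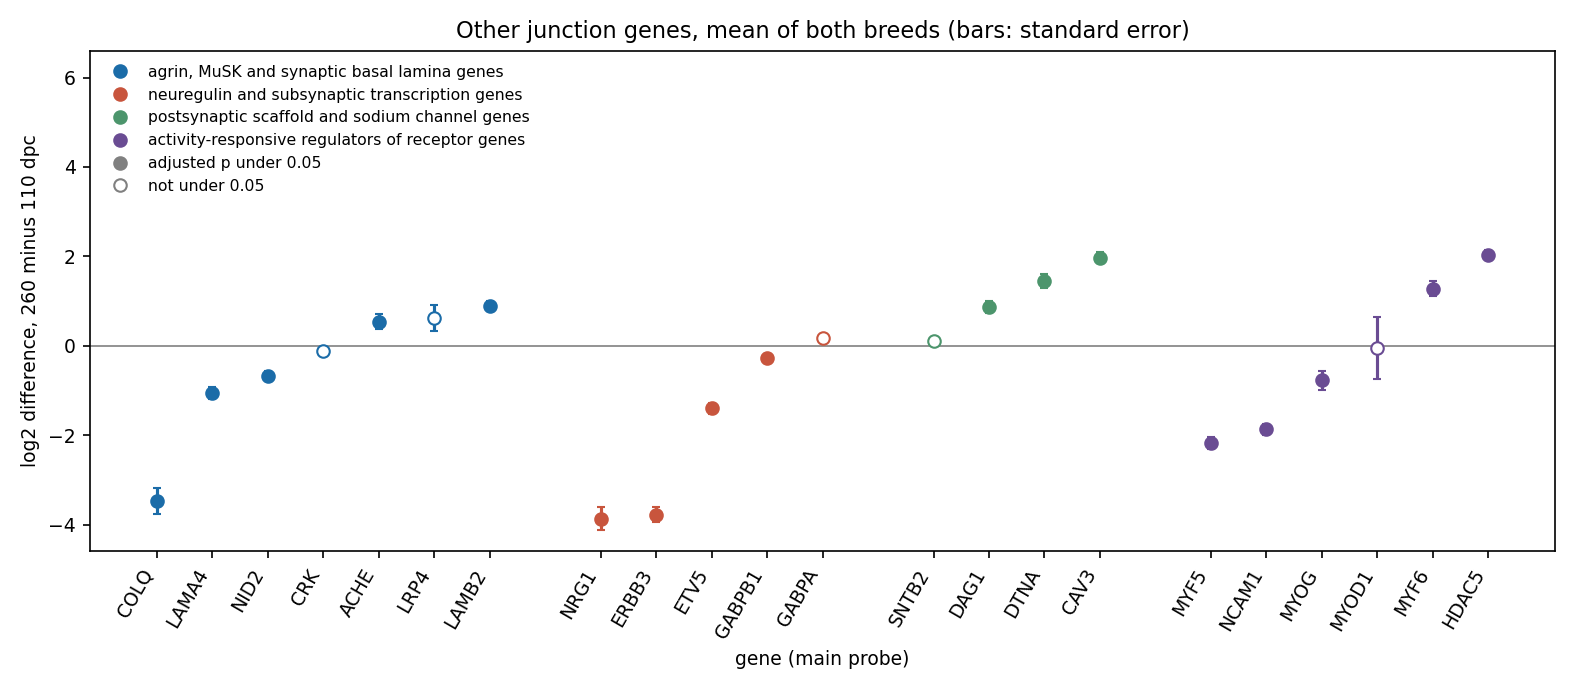
Log2 difference between 260 and 110 dpc, as the mean of both breeds with its standard error, for the main probes of junction genes in 4 lists. Filled points have a limma adjusted p under 0.05. *NRG1* and *ERBB3* in the neuregulin list and *COLQ* in the agrin list lie lowest, at -3.87, -3.78 and -3.48, and *HDAC5* among the regulators highest, at 2.04. The *NRG1* and *COLQ* values are not well measured at 260 dpc.

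Subunits of neuronal receptors were looked at as a check on the muscle type. Of 11 such genes 8 had a probe, 1 of them (*CHRNA3*) was well above background on all arrays, and none passed in limma from 110 to 260 dpc, at the adjusted or the unadjusted threshold. Markers of other cells moved with stage beside the junction genes. Of 9 motor axon markers with a probe 5 fell (22.7% of all probes did) and 0 passed upward (21.2% of all probes did). Those that fell were *UCHL1* by 3.60, *SYT1* by 2.53, *SNAP25* by 1.21 and the dim *NEFL* and *NEFM*, whose calls were lost with normexp (-0.08 and -0.07). *GAP43* and *SYP* had higher group means at 260 than at 110 dpc without passing. *GAP43* went from 2.52 to 3.03 in BA and from 2.83 to 3.02 in CH. *SYP* went from 1.91 to 2.46 in BA and from 1.96 to 2.38 in CH. *STMN2* and *SLC5A7* were well above background on 5 and 0 arrays. The mean of the list lay between -0.55 and 0.07 on the arrays of 110 dpc and between -1.66 and -1.22 on those of 260 dpc. Of 8 Schwann cell markers 4 rose, *MBP* by 1.88 among them, and *ERBB3*, which is also a Schwann cell gene, fell. Muscle fibre markers gave 8 higher and 1 lower of 10 with a median of 2.58, and connective tissue markers 4 lower of 6. The part of these shifts in the values of *CHRNG*, *CHRNE*, *MUSK*, *NRG1* or *ERBB3* was not tested.

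The genes whose signal followed gamma and epsilon most closely were taken from 20699 probes of 10152 genes. They share the course of age with them, and a high correlation over 21 arrays of 4 stages describes that course. For *CHRNG* they were *PHKG2* (Pearson r = 0.970), *TTLL1* (0.966), *EIF4E2* (0.964), *MAPK8IP1* (0.958) and *MFSD10* (0.957), each by its closest probe. Other probes of these genes could be far less alike, as A_73_118693 of *MAPK8IP1* (-0.18) and A_73_111162 of *MFSD10* (0.61) were. For *CHRNE* they were *PPP3CC* (0.966), *CIPC* (0.964), *SOD2* (0.964), *ALDH2* (0.963) and *DTNA* (0.962). *PPP3CC* encodes a catalytic subunit of calcineurin, and *DTNA*, by a probe other than its main one, belongs to the scaffold list.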

How the data were processed

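The RNA of each foetus was labelled with 1 colour and hybridized to an Agilent 4x44K bovine array. Per the labels the authors extracted the intensities with Agilent Feature Extraction 10.7, and the deposited scanner files hold the processed intensity of each spot, already background corrected and not scaled between arrays. Flags for spots well above background, saturated or outlying came from the same deposited files and have no unit of their own. The authors' value table, in log2 units, held the same processed values without scaling between arrays (99.98% of 649670 values within 0.01) and served as an alternative.

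Control spots and 258 outlying spot values were left out, spots of a probe were averaged, and log2 intensities were set to a common 75th percentile per array (525 to 1174 intensity units) with a constant of 2.69 added to all. Group means of the 8 breed and stage groups were fitted over all 21 arrays (limma 3.58.1, R 4.3.3, data.table version 1.17.8, jsonlite 2.0.0), with Benjamini-Hochberg adjustment over all probes and no filter on dim probes. There were 13 residual and 2.12 prior degrees of freedom. The fit was tested on simulated data. Probes were named through their transcript in the cattle annotation (26628 of 43653 probes). Each array is 1 foetus. Replicate numbers do not pair foetuses: the 66 pairs of arrays with the same number had a median correlation of deviations of 0.0019 and the 126 others of -0.0061. The slides were treated as batches only in the alternative with slide as a block, and the main fit did not include slide.

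The genes and lists were chosen with earlier results of these data known. All probes of the 7 genes were named, with the list genes and, for *CHRNG* and *CHRNE*, the 5 genes of highest correlation among probes well above background on at least 11 arrays. Alternatives were normexp background correction (offset 50), quantile and median scaling, the authors' value table, both filters on dim probes, sex, slide or replicate number in the fit, a trended variance, and each array left out. No probe sequence or genome position is given, and the values of some list genes are not reported here.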

Additional observations from a re-analysis of the deposited data

How the results depend on the processing

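Of 57 tested differences of the 13 probes 38 passed. The 10 other settings did not all test the dim probes. From 110 to 260 dpc the *MUSK* probes were tested under 9, 8 and 7 of them and *CHRNE* A_73_P041101 under 8. With the same sign, 26 of the 38 passed under each of the 10 settings that tested the probe. With each of 21 arrays left out 28 passed, and 25 passed under all of these. The changes of *CHRNG*, *CHRNE* and *MUSK* from 110 to 260 dpc were among the 25. The exceptions were small or single-interval differences, and the cause was not tested. Scalings shifted the median change of all probes from 110 to 260 dpc, which was 0.09, to 0.22 with normexp, 0.19 with median scaling, 0.02 with quantile normalization and -0.37 in the authors' value table. Signs turned from 110 to 260 dpc for *CHRND* A_73_118648 (-0.013 with normexp, -0.25 with quantile normalization, -0.36 in the value table; -0.059 to 0.10 without single arrays), *CHRND* A_73_P256016 (-0.13 in the value table), *CHRNA1* A_73_P192282 (-0.28 with quantile normalization, -0.13 in the value table), *CHRNA1* A_73_105112 (-0.13 in the value table) and *CHRNB1* (-0.25 in the value table, and 0.00058 for its averaged breed difference). They turned also for *RAPSN* from 210 to 260 dpc (0.0015 with median scaling) and for *CHRND* A_73_118648 from 180 to 210 dpc (0.068 with slide as a block, -0.15 to 0.052 without single arrays). *MUSK* passed from 210 to 260 dpc in the value table (-0.62, limma adjusted p = 0.0492), and *RAPSN* from 110 to 180 dpc with both filters, sex or a trended variance (highest limma adjusted p = 0.0458). From 110 to 180 dpc 5 of 13 probes passed in the value table, and from 180 to 210 dpc 1. With the study's filter, which tests 9 of the 13, 5 passed from 110 to 260 dpc, 5 from 110 to 180 dpc, 4 in BA and 5 in CH, and with probes well above background on all arrays, 10 of the 13, 5 passed in BA. From 180 to 210 dpc 0 passed with slide as a block. With replicate number as a block 2 passed there, *CHRNG* being lost (-0.82, limma adjusted p = 0.0623), and the main *CHRNA1* probe missed the threshold from 110 to 260 dpc. Without single arrays 2 to 4 probes passed from 180 to 210 dpc and 5 to 8 from 210 to 260 dpc. Signal close to background limits A_73_P041101, A_73_P286891 and A_73_P087001.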

Other observations

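In the cattle annotation no gene lies between *CHRND* and *CHRNG* or between *CHRNG* and *EIF4E2*, which was also among the genes most alike to *CHRNG*. The 4 probes of *EIF4E2* changed from 110 to 260 dpc by -1.16, -0.28, -1.04 and -1.58, the second of them not passing (limma adjusted p = 0.0618), and their Pearson r with *CHRNG* over the 21 arrays ran from 0.65 to 0.96. *CHRND*, the neighbour on the other side, differed by 0.03 over the same period. *CHRNE* and *CHRNB1* lie on the same chromosome, and *CHRNB1* differed by 0.14 while *CHRNE* rose by 2.97.

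Endothelial markers gave 3 higher and 1 lower of 5 genes from 110 to 260 dpc with a median of 0.43, leukocyte markers 2 higher and 1 lower of 5 with a median of 0.19, and adipocyte markers 1 higher of 4 with a median of 1.02. Of all probes 21.2% were higher and 22.7% lower. Most of the calls of these markers were lost under some other setting, and none turned its sign under the 10 settings other than leaving out an array.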
